A study of Mus musculus with 13 samples.

Results

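The Schlafen genes described here are Slfn1, Slfn2, Slfn3, Slfn4, Slfn5, Slfn8 and Slfn9. They were chosen by name, are protein-coding genes of 1 cluster on chromosome 11, and make up 7 of the 35906 genes in the deposited tables. The estimated counts of each gene's transcripts were summed, and all 7 genes passed the filter on low counts. RNA was sequenced from sorted mature CD4 single-positive thymocytes of the M2 stage (CD69-MHCI+), 1 mouse per library, in 13 libraries. Every mouse carried the Lm54 transgene, which encodes a single T cell receptor, and lacked Rag1, so that the T cells could make no other receptor. In CtslΔTEC mice cathepsin L, a lysosomal protease that generates MHC class II peptides, was deleted in thymic epithelium through a Foxn1-cre transgene, and the controls were labelled Ctsl fl/fl, with no Cre named in their label. The deletion therefore lay in the cells that select the thymocytes and not in the thymocytes that were sequenced. Cells of 5 CtslΔTEC and 4 control mice were taken without stimulation, and cells of 2 further CtslΔTEC and 2 further control mice were cultured for 4 h with soluble anti-CD28 at 250 ng/ml on plate-bound LLO:Iab monomer, the antigen of the receptor, at 1 µg/ml. By the study's methods the mice were young adults on a C57BL/6J background.

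Schlafen proteins fall into short, intermediate and long forms that share an AlbA-type domain, and the long forms add a helicase-like region. Slfn1 and Slfn2 are short, Slfn3 and Slfn4 intermediate, and Slfn5, Slfn8 and Slfn9 long. The genes were first described as regulators of thymocyte development and T cell quiescence. Loss of Slfn2 in the elektra mutant leaves T cells unable to stay quiescent or to survive activation, and SLFN2 protein binds tRNAs and shields them from stress-induced cleavage. Several members are induced by type I interferon, and Slfn4 is best known from myeloid cells.

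The genes lie together on chromosome 11 (GRCm38 coordinates of the GENCODE annotation). Slfn5 occupies chr11:82951349-82964840 on the plus strand and is followed by Slfn9 and Slfn8 on the minus strand at chr11:82978390-82991830 and chr11:83002158-83020810. Slfn2, Slfn1, Slfn4 and Slfn3 follow on the plus strand at chr11:83065112-83070678, chr11:83116849-83122670, chr11:83175186-83190216 and chr11:83191330-83215154. The pseudogene Slfn10-ps lies between Slfn8 and Slfn2, and Slfn14 closes the cluster, which spans 335 kb. Foxn1, whose promoter drives the Cre transgene, lies 4.56 Mb from the cluster on the same chromosome, and where the transgene itself inserted is not given in the sources used here. Ctsl lies on chromosome 13.

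The 250 bases before each RefSeq start were searched on both strands for an interferon-stimulated response element, spelled GAAANNGAAA. It was found before 978 of 32851 RefSeq starts (2.98%). Among the 7 genes it stood before Slfn5, Slfn8 and Slfn9. Stretches of 60 bases around the matches are shown because these are the 3 long members and the comparison of Slfn8 with Slfn9 shows how alike neighbouring members can be. The RefSeq sequences (GRCm38.p6) are written 5′ to 3′ on the gene's strand, with the 10 bases of the match in capitals.
Slfn5, chr11:82951922-82951981, plus strand: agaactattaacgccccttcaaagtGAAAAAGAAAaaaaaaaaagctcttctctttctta
Slfn8, chr11:83020824-83020883, minus strand: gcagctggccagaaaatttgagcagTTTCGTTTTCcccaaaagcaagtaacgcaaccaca
Slfn9, chr11:82991841-82991900, minus strand: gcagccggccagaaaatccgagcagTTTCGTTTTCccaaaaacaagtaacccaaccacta
The match began 155 bases before the start of Slfn5, 48 bases before that of Slfn8 and 45 bases before that of Slfn9. The Slfn8 and Slfn9 stretches held the same base at 32 of the first 35 positions, up to the end of the match. The Slfn8 and Slfn9 stretches lie before the first annotated exon, and the Slfn5 stretch lies before the main coding transcript and in an intron of a minor non-coding one. A match describes the letters in these windows and was not measured as a binding site.

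Depth, cell identity and the effect of stimulation were checked first. Totals ran from 25692380 to 39127833 estimated counts without stimulation and from 8085463 to 27184520 with it. The stimulated files also carry a date of their own, so stimulation and file date cannot be told apart. No hours of culture are given for the unstimulated cells, so antigen, anti-CD28 and culture itself cannot be told apart either. All 16 listed activation genes were called higher in control cells. In CtslΔTEC cells all 16 rose and 15 were called. Genes called in either direction made up 67.7% of all genes tested in control and 71.2% in CtslΔTEC cells. Nr4a3, an immediate early nuclear receptor, went from a mean of 7.76 to 1544 CPM in control cells (counts scaled to a common library size with TMM factors). Each of the 12 CD4 T cell markers was detected. Of the neutrophil markers, S100a8, S100a9, Elane, Camp, Ngp and Retnlg stayed at 3 counts or fewer in every library. Mpo exceeded this in each group and Ly6g in resting CtslΔTEC cells. Erythroid markers summed to 189 to 318 TPM in resting control and 160 to 771 TPM in resting CtslΔTEC cells. After stimulation these were 34.6 to 34.8 and 9.7 to 63.1 TPM. Dendritic cell markers summed to 56.8 to 69.3 and 52.3 to 65.9 TPM at rest. After stimulation they had 73.1 to 83.2 and 59.8 to 61.8 TPM. The part of such cells in the Schlafen values was not tested. Foxn1 had 0 to 2 counts per library. Ctsl is intact in thymocytes and cannot check the genotype. At rest it had 11.4 to 17.9 CPM in CtslΔTEC and 6.31 to 8.84 CPM in control cells. Rag1 reads, at 2 to 713 counts per library, do not show the deletion either, since which part of the gene they come from is not recorded. Their resting levels were 4.51 to 26.5 CPM in CtslΔTEC and 2.78 to 5.13 CPM in control cells. Both genes were called higher in resting CtslΔTEC cells, and the cause was not tested. In bulk samples fewer cells of a type and less RNA per cell cannot be told apart.

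In resting control cells the short members dominated. Per unit of length, Slfn2 reached 424 ± 19.8 TPM (SD, n = 4), the authors' length-scaled abundance with the same total in every library, which placed it at rank 270 of all genes, and Slfn1 reached 262 ± 5.90 TPM. Slfn5 followed at 73.7 ± 5.54 TPM and Slfn8 at 47.8 ± 6.54 TPM. Slfn3 had 16.6 ± 2.02 TPM, Slfn9 7.31 ± 0.570 TPM and Slfn4 1.13 ± 0.250 TPM. No gene's range of TPM over the 4 control mice overlapped that of the next gene in this order. CtslΔTEC cells had the same order, but there the ranges of Slfn5 and Slfn8 overlapped. Summed over the 7 genes, resting cells held 806 to 848 TPM in control mice and 752 to 891 TPM in CtslΔTEC mice, and Slfn1 and Slfn2 together supplied 80.1% to 84.3% of it over the 9 resting libraries.

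**Figure D1:**
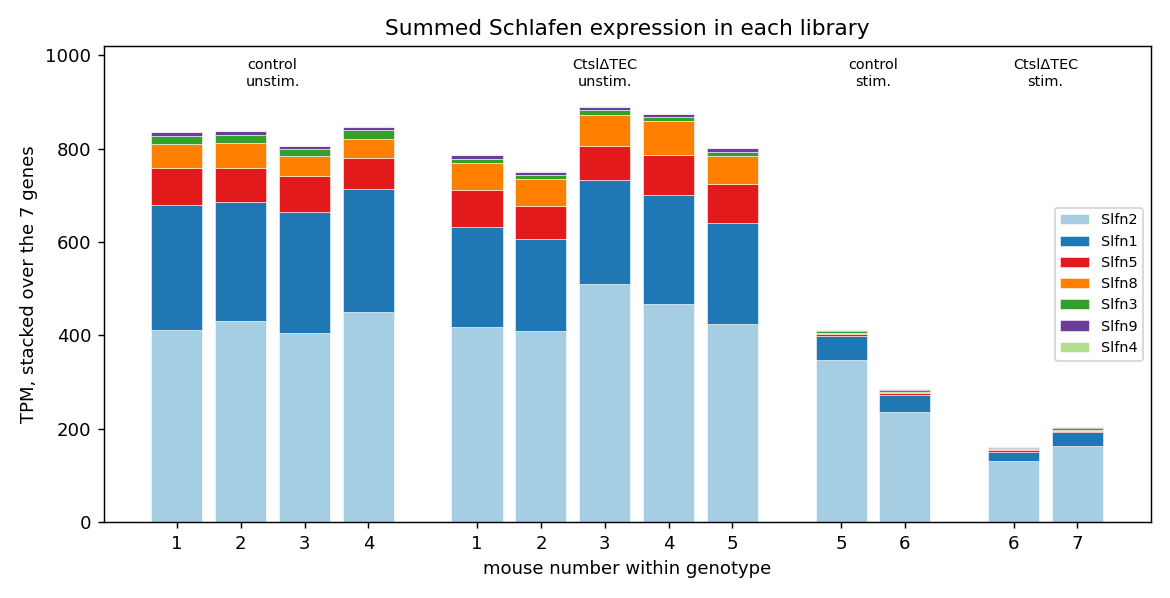
Stacked bars give the TPM of the 7 Schlafen genes in each of the 13 libraries, grouped by genotype and stimulation, with mouse numbers on the horizontal axis. Resting libraries reach 752 to 891 TPM and stimulated ones 161 to 412 TPM, and Slfn2 (light blue) makes up most of what remains after stimulation.

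Slfn1 and Slfn2 are each a single annotated transcript, but other members share sequence, which limits how well their counts can be separated. Of the 31-base words in the transcripts, 27.3% of those of Slfn8 and 23.7% of those of Slfn9 also occurred in another gene, chiefly in each other and in Slfn10-ps. For Slfn3 the share was 27.9% and for Slfn4 20.9%, chiefly with each other and with the pseudogene Gm11427. Slfn2 shared 10.2%, Slfn5 5.22% and Slfn1 1.96%.

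The first comparison set stimulated against resting cells in control mice. 6 of the 7 genes fell (edgeR's quasi-likelihood test, Benjamini-Hochberg adjusted p under 0.1), against 34.8% of the 14241 genes tested that fell and 67.7% that were called in either direction. The median log2 fold change of the 7 genes was -1.84, and that of all genes tested was 0.01. The long members Slfn8 and Slfn5 fell most, followed by Slfn1, Slfn9 and Slfn3, whereas Slfn2 fell least and Slfn4 was not called. The share of all genes whose ranges did not overlap was not counted for either stimulation comparison. Separated ranges given below for stimulation therefore only describe the values.

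Slfn8, a long member without a well defined role in T cells, had 123, 137, 105 and 99.1 CPM in control mice 1 to 4 before stimulation. It had 7.02 and 6.52 CPM in the stimulated control mice 5 and 6. The groups were far apart, and the decrease was 17.3-fold (log2 fold change -4.11, SE 0.18, adjusted p = 7.45e-11), the 171st lowest of the 14241 log2 fold changes. Slfn5, a long member reported to repress interferon-driven transcription, had 284, 292, 288.5 and 256 CPM at rest and 20.4 and 20.2 CPM after stimulation. It fell 13.8-fold (log2 fold change -3.79, SE 0.12, adjusted p = 5.47e-12). Slfn9, the third long member, went from 30.7, 32.8, 26.8 and 28.8 CPM to 8.34 and 8.27 CPM. Its ranges did not overlap either, and the decrease of 3.59-fold (log2 fold change -1.84, SE 0.13, adjusted p = 1.29e-08) was smaller than those of the other long members on the log2 scale.

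Slfn1, a short member that slows T cell growth when overexpressed, had 321, 324, 315 and 340 CPM at rest and 73.9 and 46.4 CPM after stimulation. The groups did not overlap, and Slfn1 fell 5.47-fold (log2 fold change -2.45, SE 0.18, adjusted p = 1.24e-08). Slfn2, the quiescence factor, had 431, 476, 431 and 505 CPM at rest and 428 and 263 CPM after stimulation. The higher stimulated value, of mouse 5, lay just under the lowest resting one, and the decrease was 1.34-fold (log2 fold change -0.42, SE 0.16, adjusted p = 0.0291). This call rested on stimulated mouse 6: without it the log2 fold change was -0.12 with an adjusted p of 0.487.

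Slfn3, an intermediate member, had 21.3, 21.8, 17.7 and 24.7 CPM at rest and 7.28 and 5.71 CPM after stimulation. The ranges did not overlap, and Slfn3 fell 3.36-fold (log2 fold change -1.75, SE 0.16, adjusted p = 2.28e-07). Slfn4, its neighbour, was at the edge of detection, with 1.68, 1.96, 1.15 and 1.72 CPM at rest and 0.397 and 1.36 CPM after stimulation. The stimulated values lay on both sides of the lowest resting one and rested on 3 and 35 estimated counts, and Slfn4 was not called (log2 fold change -0.70, SE 0.38, adjusted p = 0.127). This depended on the scaling and the test: Slfn4 was called with upper-quartile factors (-0.78, adjusted p = 0.0932), with library totals alone (-0.79, adjusted p = 0.0901) and with limma on log2(TPM + 1) (-0.60, adjusted p = 0.00126) and log2(TPM + 0.1) (-1.33, adjusted p = 0.00315). Without stimulated mouse 6 the log2 fold change was -2.04 with an adjusted p of 0.00985. Its counts also moved between transcripts of unequal length, the shortest of which held 66.1% to 100% of them at rest and 0.00164% to 60.9% after stimulation, and with transcript lengths as an offset its log2 fold change was -1.32 with an adjusted p of 0.011.

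**Figure D2:**
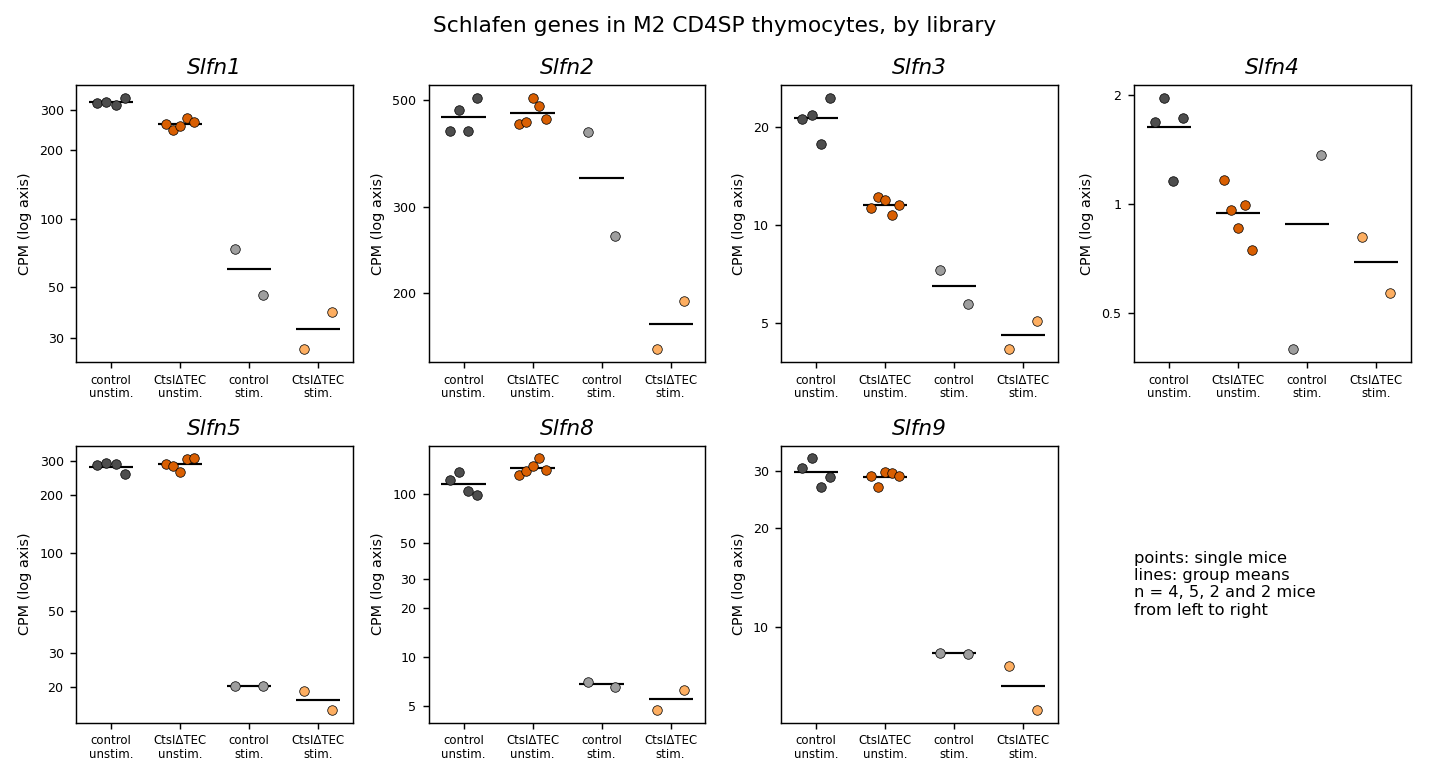
Each panel shows 1 Schlafen gene, with CPM on a log axis and its own scale, 1 point per mouse and a line at the group mean, for control and CtslΔTEC libraries at rest (n = 4 and 5) and after stimulation (n = 2 and 2). Slfn8 lies at 99.1 to 167 CPM at rest and 4.69 to 7.02 CPM after stimulation, whereas control mouse 5 keeps 428 CPM of Slfn2 after stimulation.

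The same 6 genes were called lower after stimulation in CtslΔTEC cells, against 38.2% of the 14241 genes tested that fell and 71.2% that were called in either direction. The median log2 fold change was -2.15 for the 7 genes and -0.06 for all genes tested. Slfn8 went from 131, 139, 149, 167 and 141 CPM in CtslΔTEC mice 1 to 5 to 4.69 and 6.26 CPM in mice 6 and 7, a 26.2-fold decrease (log2 fold change -4.71, SE 0.18, adjusted p = 1.47e-11). Slfn5 went from 287, 281, 262, 307 and 309.6 CPM to 19.1 and 15.2 CPM (log2 fold change -4.08, SE 0.13, adjusted p = 1.44e-12). Both genes were again among the strongest decreases, at positions 234 and 318 from the lowest log2 fold change. Slfn9 went from 28.9, 26.8, 29.8, 29.6 and 28.9 CPM to 7.58 and 5.56 CPM (log2 fold change -2.15, SE 0.13, adjusted p = 1.89e-09).

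Among the short members, Slfn1 went from 259, 245, 254, 278 and 265 CPM to 26.7 and 39.1 CPM in CtslΔTEC cells, a 7.87-fold decrease (log2 fold change -2.98, SE 0.18, adjusted p = 1.29e-09). Slfn2 went from 445, 449, 505, 485 and 456 CPM to 153 and 192 CPM, so that both stimulated mice lay well below all resting ones (log2 fold change -1.44, SE 0.16, adjusted p = 1.28e-06). Slfn3 went from 11.3, 12.2, 12.0, 10.7 and 11.5 CPM to 4.15 and 5.06 CPM, again without overlap (log2 fold change -1.32, SE 0.16, adjusted p = 3.53e-06). Slfn4 had 1.16, 0.961, 0.856, 0.989 and 0.748 CPM at rest and 0.812 and 0.569 CPM after stimulation, which overlapped (log2 fold change -0.47, SE 0.41, adjusted p = 0.328). With transcript lengths as an offset the log2 fold change of Slfn4 was -1.4 (adjusted p = 0.00903), and limma on log2(TPM + 0.1) gave -1.21 (adjusted p = 0.00413). The 2 stimulation comparisons use different mice throughout.

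After stimulation the 7 genes summed to 412 and 286 TPM in control mice 5 and 6 and to 161 and 203 TPM in CtslΔTEC mice 6 and 7. Slfn2 supplied 82.4% to 84.1% of the sum in control and 80.5% to 81.0% in CtslΔTEC cells, where it had supplied 49.2% to 57.3% over the 9 resting libraries. At that point Slfn5 and Slfn3 had nearly equal TPM in control cells and their ranges overlapped.

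**Figure D3:**
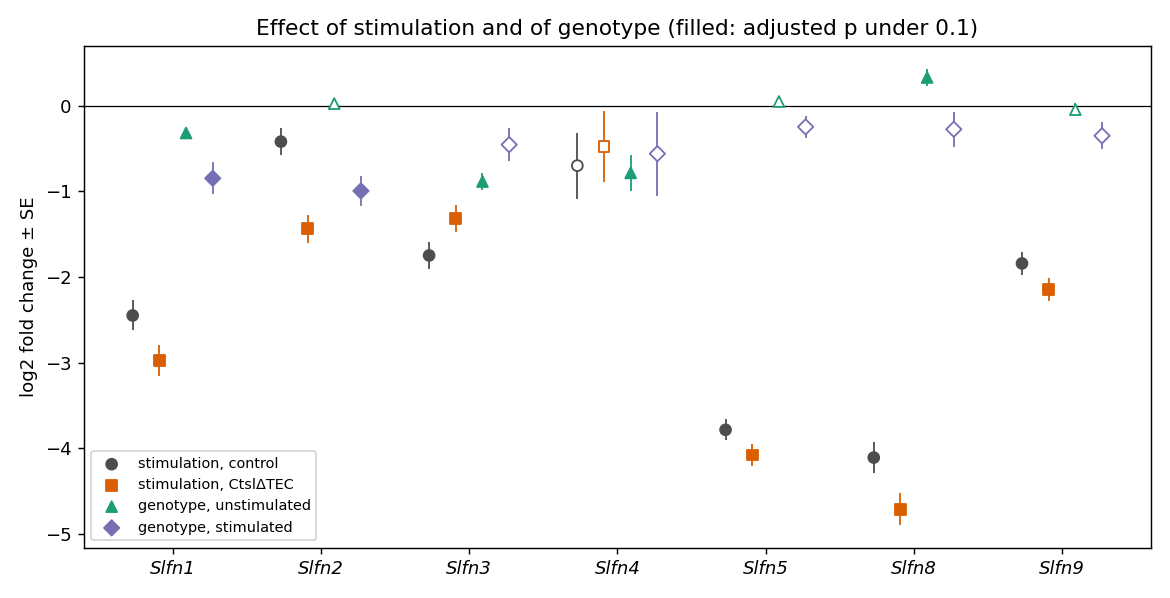
Log2 fold changes with standard errors for the 7 genes, for stimulation in control (circles) and CtslΔTEC cells (squares) and for genotype at rest (triangles) and after stimulation (diamonds), with filled symbols at an adjusted p under 0.1. The stimulation effects reach -4.71 for Slfn8, whereas the genotype effects stay between -0.995 and 0.33.

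The second question was whether thymocytes selected on Ctsl-deficient epithelium differ at rest. 4 of the 7 genes were called, 3 lower and 1 higher in CtslΔTEC cells, against 14.8% of the 13152 genes tested in either direction and 8.36% that were lower. On the log2 scale the 7 genes had a median of -0.05 and all genes tested one of 0.01. Slfn3 differed most: the 5 CtslΔTEC mice, between 10.7 and 12.2 CPM, all lay below the 4 control mice, between 17.7 and 24.7 CPM (log2 fold change -0.89, SE 0.10, adjusted p = 0.000131). Slfn1 was also lower without overlap, at 245 to 278 CPM against 315 to 340 CPM (log2 fold change -0.32, SE 0.06, adjusted p = 0.00436). In a fit to all 13 libraries, as used for the other comparisons, its log2 fold change was also -0.32 but the call was lost (adjusted p = 0.116). The CPM ranges of the groups did not overlap for 13.9% of all genes tested.

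Slfn4 was lower at 0.748 to 1.16 against 1.15 to 1.96 CPM, with a small overlap (log2 fold change -0.78, SE 0.21, adjusted p = 0.0374). It rested on 23 to 62 estimated counts per library, and markers of macrophages and monocytes summed to 10.9 to 16.5 TPM in control and 15.0 to 22.4 TPM in CtslΔTEC cells, with Cd14 at 3 counts or fewer in every library. Of the 10 genes of this list that could be tested, C1qb (1.18 against 0.307 CPM) and Csf1r (0.919 against 0.377 CPM) were called higher in CtslΔTEC cells and Itgam, the most abundant of the 3, lower (5.87 against 9.999 CPM). These calls were 30% of the genes tested, beside 14.8% of all genes, and 8 of the 10 had log2 fold changes above 0, with a median of 1.28, while DESeq2 called 6. The part of these cells in the Slfn4 values was not tested. Slfn8 moved the other way, at 131 to 167 CPM in CtslΔTEC and 99.1 to 137 CPM in control cells (log2 fold change 0.33, SE 0.10, adjusted p = 0.064). Its call was lost when control mouse 3 or 4 or CtslΔTEC mouse 3 or 4 was left out, with log2 fold changes of 0.28, 0.26, 0.32 and 0.28 and adjusted p values of 0.172, 0.157, 0.122 and 0.139 in that order, and when Slfn8, Slfn9 and Slfn10-ps were pooled (log2 fold change 0.26, adjusted p = 0.102). That of Slfn4 was lost without control mouse 2 (log2 fold change -0.69, adjusted p = 0.113), after thinning all libraries to the smallest total (log2 fold change -0.53, adjusted p = 0.389) and with limma on log2(TPM + 1) without a filter (log2 fold change -0.31, adjusted p = 0.14).

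Slfn2 at 445 to 505 CPM in CtslΔTEC and 431 to 505 CPM in control cells overlapped fully (log2 fold change 0.03, SE 0.07, adjusted p = 0.878). Slfn5 (log2 fold change 0.05, SE 0.07, adjusted p = 0.728) and Slfn9 (log2 fold change -0.05, SE 0.07, adjusted p = 0.781) overlapped as well. For these 3 genes no difference between the genotypes was detectable at rest.

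Measures other than Ctsl genotype moved with the groups. RNA of the Y-linked gene Ddx3y was present in all 5 resting CtslΔTEC mice (125 to 206 CPM) but in only 1 of the 4 control mice, mouse 3 (161 CPM, against 0.0351 to 0.058 CPM in mice 1, 2 and 4). In that mouse Slfn1 (315 CPM) and Slfn3 (17.7 CPM) still lay above every CtslΔTEC mouse and Slfn8 (105 CPM) below, whereas Slfn4 (1.15 CPM) lay within their range. With the Y-linked level as a covariate only Slfn3 was called (log2 fold change -0.61, adjusted p = 0.0416), while the other calls were lost. The log2 fold change was then -0.26 for Slfn1 (adjusted p = 0.29) and 0.47 for Slfn8 (adjusted p = 0.29), the latter larger than without the covariate, and -0.25 for Slfn4 (adjusted p = 0.861).

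Markers of earlier and of CD8 lineage thymocytes also differed between the resting groups. The 8 listed genes of double-positive thymocytes summed to 41.8 to 70.5 TPM in control and 165 to 217 TPM in CtslΔTEC cells, and the 7 CD8 lineage genes summed to 115 to 129 and 199 to 245 TPM. Of the first list Tmie, Dntt, Arpp21 and Aqp11 were among 5 genes called higher in CtslΔTEC cells and 0 were lower, whereas of the second Cd8a and Cd8b1 were higher and Nkg7, Ctsw, Klrd1 and Runx3 lower. The called genes were 71.4% of the 7 tested in the first list and 85.7% of the 7 in the second, beside 14.8% of all genes. None of the genes listed was at 3 counts or fewer in every library of a resting group. Neither summed range overlapped between the genotypes. Of 6 regulatory T cell genes 3 were called (50%), Il2ra and Ctla4 higher and Ikzf2 lower in CtslΔTEC cells, and of 15 activation genes 4 (26.7%), 2 in each direction. The part of these cells or programmes in the Schlafen values was not tested. The resting files carry 2 dates. On the first date the 2 CtslΔTEC mice, mouse 1 and mouse 3, had 11.3 and 12.0 CPM of Slfn3 and the control mouse 4 had 24.7 CPM. On the second date the 3 CtslΔTEC mice had 10.7 to 12.2 CPM and the 3 control mice 17.7 to 21.8 CPM, and a fit to that date alone called Slfn1 and Slfn3 and neither Slfn4 (log2 fold change -0.83, adjusted p = 0.101) nor Slfn8 (log2 fold change 0.295, adjusted p = 0.12), with 6 mice in place of 9.

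**Figure D4:**
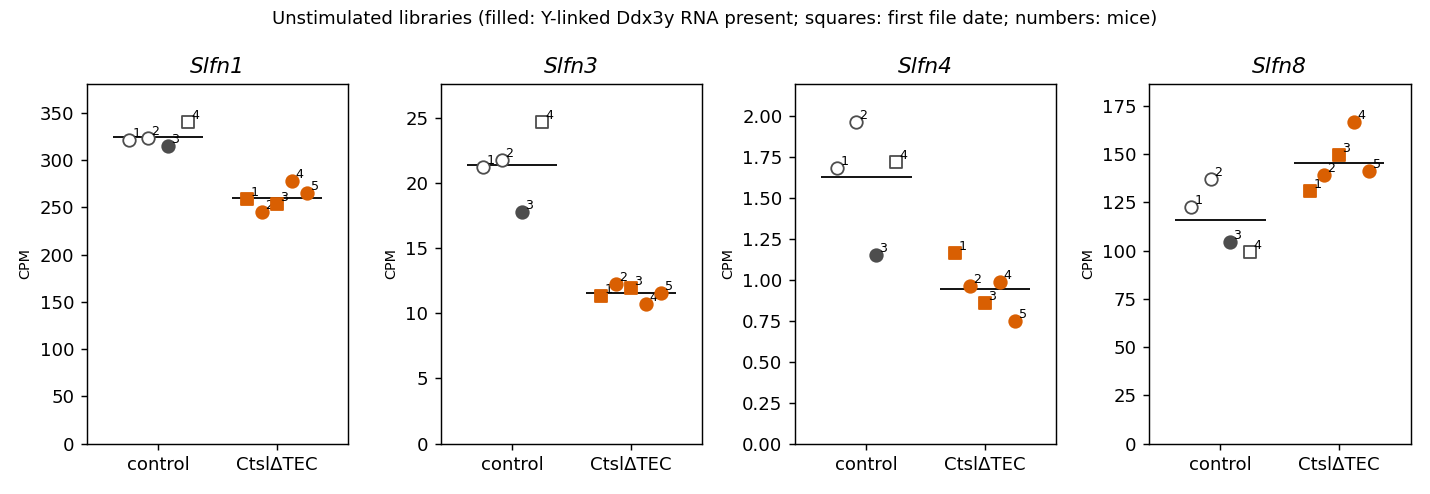
CPM of the 4 genes called at rest, from 0 on a linear axis, with 1 numbered point per mouse (4 control, 5 CtslΔTEC) and lines at the group means. Filled symbols mark mice with Ddx3y RNA and squares the first file date, and control mouse 3, the only filled control, is the lowest control value for Slfn1, Slfn3 and Slfn4.

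The difference in Slfn3 lay in its coding transcripts. The 2 protein-coding transcripts together had 16.3 to 23.3 CPM in resting control and 9.37 to 10.5 CPM in resting CtslΔTEC cells. The processed transcript, which has no coding annotation, had 1.27 to 1.56 CPM in control and 1.36 to 1.83 CPM in CtslΔTEC cells, and these ranges overlapped. It therefore held 5.43% to 7.79% of the gene's estimated counts in control and 12.3% to 15.9% in CtslΔTEC cells. With protein-coding transcripts alone the log2 fold change of Slfn3 between the resting genotypes was -0.98 with an adjusted p of 0.000101. After stimulation the coding transcripts had 4.23 to 5.79 CPM in control and 3.30 to 3.74 CPM in CtslΔTEC cells, and the processed transcript stayed at 0.812 to 1.51 CPM over the 4 libraries. How reads in shared exons were divided between transcripts was estimated by the authors' program and not observed.

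After stimulation 2 of the 7 genes differed between the genotypes, against 13.3% of the 14241 genes tested. Both were short members and both were lower in CtslΔTEC cells. Over the 7 genes the median was -0.45 on the log2 scale, beside -0.05 over all genes tested. Slfn2 had 153 and 192 CPM in CtslΔTEC mice 6 and 7 and 428 and 263 CPM in control mice 5 and 6 (log2 fold change -0.995, SE 0.18, adjusted p = 0.00336). Slfn1 had 26.7 and 39.1 CPM in CtslΔTEC and 73.9 and 46.4 CPM in control cells (log2 fold change -0.85, SE 0.19, adjusted p = 0.0107). With 2 mice a group, the CPM ranges of 49.6% of all genes did not overlap, so the separation of single values carries little weight here.

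The call of Slfn2 held without any one of the 4 stimulated mice. Over all mice left out its log2 fold change ran from -1.31 to -0.61. The call of Slfn1 was lost without control mouse 5 (log2 fold change -0.498) or CtslΔTEC mouse 6 (log2 fold change -0.61). Control mouse 5, which had the highest Slfn2 and Slfn1 of the 4, was the shallowest library with 8085463 estimated counts and lacked Ddx3y RNA, and CtslΔTEC mouse 6, with the lowest values, also lacked it (0.265 and 0.0903 CPM). The 2 stimulated mice with Ddx3y RNA, control mouse 6 and CtslΔTEC mouse 7, differed in the same direction, with 263 and 192 CPM of Slfn2. Markers of double-positive thymocytes summed to 14.9 to 16.7 TPM in control and 19.5 to 24.5 TPM in CtslΔTEC cells, and those of the CD8 lineage to 29.3 to 32.7 and 47.1 to 50.7 TPM, with Ptcra and Eomes at 3 counts or fewer in all 4 libraries. Of the first list 1 of 8 genes was called, 12.5% beside 13.3% of all genes, and of the second 4 of 7 (57.1%), Cd8a and Cd8b1 higher and Runx3 and Klrd1 lower in CtslΔTEC cells. Of the 16 activation genes 5 were called between the stimulated genotypes (31.3%, beside 13.3% of all genes), with Nr4a3 and Nr4a2 higher in CtslΔTEC cells and Tnfrsf4, Batf and Il2 lower, the last at 4.41 against 52.6 CPM. The part of these differences in the Slfn1 and Slfn2 results was not tested.

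Slfn3, which was lower in resting CtslΔTEC cells, was not called after stimulation, at 4.15 and 5.06 against 7.28 and 5.71 CPM (log2 fold change -0.45, SE 0.19, adjusted p = 0.171). The long members had log2 fold changes of -0.25 (Slfn5, SE 0.13, adjusted p = 0.275), -0.27 (Slfn8, SE 0.20, adjusted p = 0.473) and -0.35 (Slfn9, SE 0.16, adjusted p = 0.194). Slfn4, at -0.56 (SE 0.49, adjusted p = 0.559), overlapped between the groups. Single mice decided these calls too: without control mouse 6 Slfn3 was called (adjusted p = 0.0967) and the log2 fold change of Slfn4 was 0.76, and without CtslΔTEC mouse 6 Slfn9 was called (adjusted p = 0.0822).

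Whether the response itself differed between the genotypes was tested as an interaction. Slfn2 was the 1 gene of 7 called, against 6.01% of the 14241 genes tested: its decrease in CtslΔTEC cells exceeded that in control cells by 1.02 on the log2 scale (SE 0.21, adjusted p = 0.0202). The call was lost without CtslΔTEC stimulated mouse 6 (difference -0.865). Over all mice left out the difference ran from -1.34 to -0.632. For the other members the difference of the responses was -0.53 (Slfn1, SE 0.22, adjusted p = 0.243), 0.43 (Slfn3, SE 0.22, adjusted p = 0.362), 0.23 (Slfn4, SE 0.57, adjusted p = 0.91), -0.29 (Slfn5, SE 0.15, adjusted p = 0.357), -0.60 (Slfn8, SE 0.23, adjusted p = 0.194) and -0.30 (Slfn9, SE 0.18, adjusted p = 0.451). None of these 6 differences was called in the main edgeR fit, with 2 stimulated mice per genotype. That of Slfn1 was called without CtslΔTEC mouse 7 or control mouse 6 (-0.843 in each case). Limma called that of Slfn8 on log2(TPM + 1) (-0.655, adjusted p = 0.0898) and on log2(TPM + 0.1) (-0.758, adjusted p = 0.0666). With Slfn8, Slfn9 and Slfn10-ps pooled, edgeR called it too (-0.632, adjusted p = 0.0602).

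Of the other loci of the family, Slfn10-ps, which shares 32.4% of its 31-base words with other genes, fell from a mean of 18.7 to 4.04 CPM in control and from 21.9 to 2.57 CPM in CtslΔTEC cells, and at rest it was called higher in CtslΔTEC cells (log2 fold change 0.23, SE 0.07, adjusted p = 0.075). Its interaction of genotype and stimulation was also called by edgeR (-0.80, SE 0.22, adjusted p = 0.0684) and not by DESeq2. Slfn14 had 0 or 1 estimated counts in every library, and Slfnl1, on chromosome 4, had at most 6.

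The response varied along the cluster. From the Slfn5 end the log2 fold changes in control cells were -3.79 for Slfn5, -1.84 for Slfn9 and -4.11 for Slfn8, then -0.42 for Slfn2, -2.45 for Slfn1, -0.70 for Slfn4 and -1.75 for Slfn3, so that neighbours such as Slfn8 and Slfn9 or Slfn2 and Slfn1 differed widely in size. Of 60 further genes within 1 Mb of the cluster, 21 could be tested, and in control cells 10 of them rose, 4 fell and the median was 0.38 on the log2 scale. The called share, 66.7%, was near the 67.7% of all genes. Nle1, a ribosome assembly factor, rose from 49.5 to 239 CPM, and Synrg, a component of clathrin-coated vesicle formation, fell from 166 to 79.2 CPM. Between the resting genotypes, edgeR called 0 of the 17 genes tested within 1 Mb, with 1 at an unadjusted p under 0.05 and 0 called by DESeq2. Of the 36 genes tested between Foxn1 and the cluster, 2 were called, Rhbdl3 and 5730455P16Rik, both higher in CtslΔTEC cells, which was 5.56% beside 14.8% of all genes. Between the stimulated genotypes 9 of 39 were called, 6 lower and 3 higher in CtslΔTEC cells, which was 23.1% beside 13.3% of all genes.

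**Figure D5:**
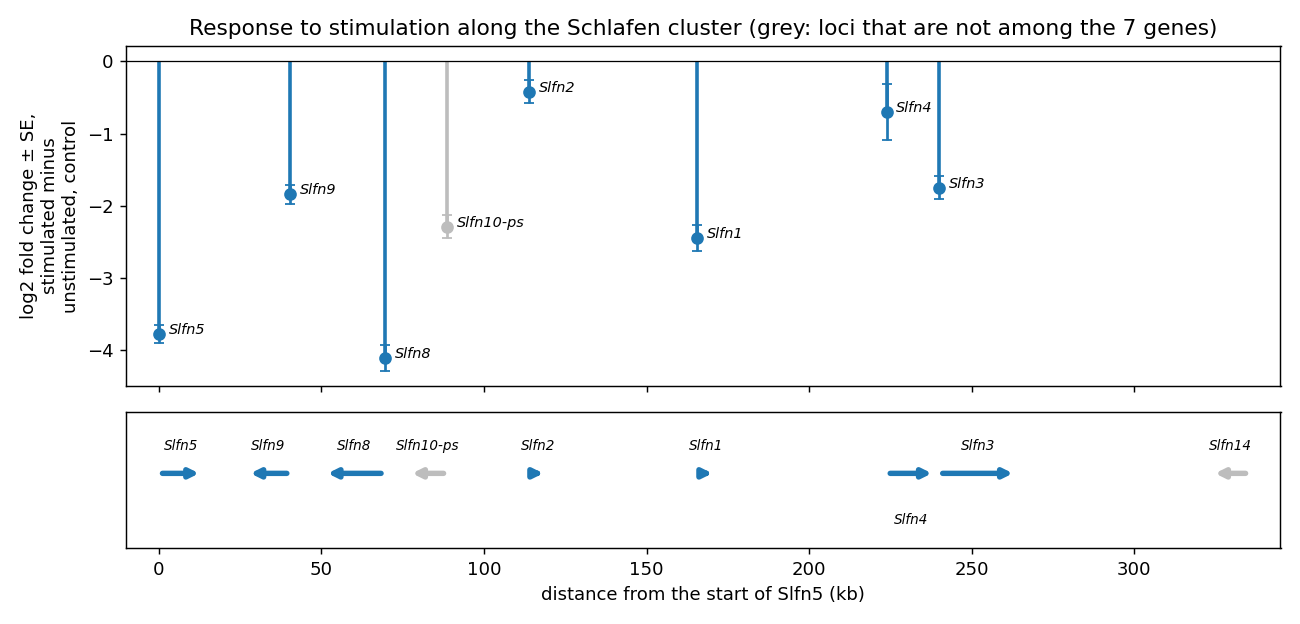
The lower track shows the Schlafen loci as arrows in the direction of transcription, by distance in kb from the start of Slfn5, and the upper panel gives at each gene's 5′ end its log2 fold change with standard error for stimulated against unstimulated control cells. Slfn5 and Slfn8 have the lowest values and Slfn2 lies nearest 0, and grey marks loci outside the 7 genes.

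Gene groups linked to the known biology of the family were then described alongside it. Of 40 interferon-stimulated genes, 36 fell and 3 rose on stimulation in control cells, and 36 fell and 1 rose in CtslΔTEC cells, with median log2 fold changes of -2.80 and -3.10 against 0.01 and -0.06 for all genes. Calls in either direction thus made up 97.5% and 92.5% of the list, beside 67.7% and 71.2% of all genes tested. With the 2 genes at 0 in both stimulated CtslΔTEC libraries, Ifit3b and Oas1a, set to the bound that 3 counts over the group allow, the CtslΔTEC median was -3.02. Slfn5 and Slfn8 lay below these medians in both genotypes and Slfn1 and Slfn9 above them. Ifi206, a nucleic acid sensor family member, fell from 137 to 9.13 CPM in control and from 125 to 3.11 CPM in CtslΔTEC cells, and Ddx58, which encodes the RNA sensor RIG-I, fell from 131 to 24.3 and from 127 to 19.4 CPM. At rest 3 of the 40 genes were called between the genotypes, all higher in CtslΔTEC cells, Ifi213, Ifi214 and Ifit2, and the median was -0.02. This was 7.5% of the list, below the 14.8% of all genes. After stimulation 7 were lower in CtslΔTEC cells, among them Ifi208 (4.97 against 16.2 CPM), and Samd9l was higher, together 20% of the list beside 13.3% of all genes.

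Of 13 interferon signalling genes, 10 fell and 2 rose on stimulation in each genotype, with medians of -1.25 in control and -1.89 in CtslΔTEC cells. The 12 called genes were 92.3% of the list, beside 67.7% of all genes in control and 71.2% in CtslΔTEC cells. Irf9 and Stat2, subunits of the complex that binds interferon-stimulated response elements, fell from 110.3 to 23.0 CPM and from 58.5 to 15.0 CPM in control cells. The genes that rose were the kinase gene Jak2, from 153 to 1100 CPM, and the inhibitor Socs1, from 9.51 to 127 CPM. At rest Ifnar1, a type I interferon receptor chain, and Irf9 were called lower in CtslΔTEC cells, at 188 against 223 CPM and 89.8 against 110.3 CPM, and after stimulation 4 genes of the list were, Ifngr2, Ifnar1, Irf9 and Irf1. The resting share, 15.4%, was near the 14.8% of all genes, and the stimulated share was 30.8% beside 13.3%.

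Of 26 genes linked to T cell quiescence, 17 fell and 6 rose in stimulated control cells and 16 fell and 8 rose in stimulated CtslΔTEC cells, with medians of -1.40 and -1.62. The called share was 88.5% in control and 92.3% in CtslΔTEC cells, beside 67.7% and 71.2% of all genes. Foxo1, a transcription factor of naive T cells, fell from 515 to 169 CPM in control cells, whereas Vsir, an inhibitory receptor, rose from 325 to 1321 CPM. At rest 7 were lower and 2 higher in CtslΔTEC cells, with a median of -0.14, and the lower ones included Il7r, the survival cytokine receptor (42.7 against 90.4 CPM), and S1pr1, the egress receptor (502 against 789 CPM). After stimulation 7 were lower and 3 higher, with a median of -0.01. These were 34.6% of the list at rest and 38.5% after stimulation, beside 14.8% and 13.3% of all genes.

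Of 15 tested genes of tRNA cleavage and its control, chosen because SLFN2 protects tRNAs, 11 rose and 2 fell on stimulation in each genotype, with medians of 0.62 and 0.71. The 13 called genes were 86.7% of those tested, beside 67.7% of all genes in control and 71.2% in CtslΔTEC cells. Nsun2, a tRNA methyltransferase whose mark guards tRNAs against cleavage, rose from 146 to 514 CPM in control cells. Between the genotypes 1 gene was called at rest, Tsen54 (13.4 against 19.1 CPM in CtslΔTEC and control cells), with a list median of 0.03 and a called share of 6.67% beside 14.8% of all genes. After stimulation edgeR called 0, with 2 at an unadjusted p under 0.05 and 1 called by DESeq2, with a list median of -0.02. The interaction with genotype called 1 of the 13 signalling genes, 5 of the 40 interferon-stimulated genes and 5 of the 26 quiescence genes. These shares were 7.69%, 12.5% and 19.2%, beside 6.01% of all genes, so that the first was near the share over all genes. It called 0 of the 15 tRNA genes, with 1 at an unadjusted p under 0.05 and 0 called by DESeq2.

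The genes whose profiles over the 13 libraries lay nearest to each member were named by the root mean square difference of centred log2 CPM, among 10090 genes with a mean log2 CPM of at least 1. For Slfn1 the nearest was Ctsd (0.07), followed by Ndrg2 (0.13) and Ccr7 (0.13), where Slfn1 itself deviated from its mean by 1.30. For Slfn2 they were Lpcat1 (0.13), Orai3 (0.13) and Ick (0.13), against its own deviation of 0.54, and for Slfn3 they were Cytip (0.16), Dpy19l1 (0.17) and Dusp10 (0.20). For Slfn4, the noisiest, they were Zfp558 (0.27), Cyfip1 (0.28) and Dsel (0.29). The long members Slfn5 and Slfn8 lay near each other, with a difference of 0.32 that placed Slfn8 at position 23 from Slfn5 and Slfn5 at position 7 from Slfn8. The nearest genes to Slfn5 were Ighm (0.21), Irf7 (0.22) and Dhrs7 (0.24), and those to Slfn8 were Rnf213 (0.20), Abcg3 (0.20) and 9930111J21Rik2 (0.21), while those to Slfn9 were Cep19 (0.11), Ssh2 (0.12) and Sash3 (0.13). The points share their libraries, and the difference between stimulated and resting libraries makes up most of each profile except that of Slfn4.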

How the data were processed

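The authors quantified each library with kallisto 0.48 against mouse transcripts with default settings and deposited, per transcript, estimated counts (expected counts), TPM and effective lengths, 1 table per mouse. The labels name polyA RNA and the methods ribosomal RNA depletion. Transcript counts were added up per gene, with genes taken from GENCODE (116397 of 117497 transcripts matched), rounded and tested in R 4.3.3 with edgeR 4.0.16: TMM factors, a filter on low counts (filterByExpr), the quasi-likelihood test and Benjamini-Hochberg adjustment over all genes, called at an adjusted p under 0.1. The resting genotypes were fitted on 9 libraries and the other comparisons on all 13 in a 4-group model, so that 2 stimulated mice per genotype share the spread of all groups. Each library is 1 mouse, and the p-values measure the spread between mice. The members and lists were chosen with earlier results of these data known. From each list up to 4 genes with the smallest p per direction were named. DESeq2 1.42.0 and limma 3.58.1 on log2(TPM + 1) and log2(TPM + 0.1) served as alternatives, beside other scalings, filters, thinning and leaving out mice. Log2 fold changes are shrunk slightly by edgeR's prior count. The scripts were tested on simulated data. CPM and TPM per library carry no counting interval, and the depths above limit the rare genes. A few list members and 1 motif are not reported here.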

Additional observations from a re-analysis of the deposited data

Results flagged for a closer look

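The response of Slfn2 to stimulation differed between the genotypes by a test of the difference itself: the interaction was -1.02 on the log2 scale (SE 0.21, adjusted p = 0.0202, edgeR's quasi-likelihood test), with both stimulated CtslΔTEC mice at 153 and 192 CPM and both stimulated control mice at 428 and 263 CPM. The call was lost without CtslΔTEC stimulated mouse 6 (-0.865), and over all mice left out the interaction ran from -1.34 to -0.632. Of 14 sets of resting values examined for a single distant mouse, 7 genes in 2 groups, 0 had one, where chance gives about 1 in 20.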

How the results depend on the processing

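Of the log2 fold changes of single Schlafen genes recomputed under the alternatives, 960 kept their direction and their side of the threshold, 22 newly passed it, 21 no longer passed it and 15 changed sign. The number of Schlafen genes called between the resting genotypes, 4, was 1 with the Y-linked covariate (Slfn3), 2 on the second file date alone and 3 to 4 when single mice were left out. With mouse number as a replicate block it was 2 (Slfn1 and Slfn3). The correlation of same-numbered mice 1 to 4 was -0.1555, 0.3475, -0.0974 and -0.1382. Only the mice numbered 2 shared a file date, so these values cannot show whether the numbers pair mice. Leaving out single mice gave 1 to 3 genes for the stimulated genotypes, 6 to 7 for stimulation in control cells, 6 in CtslΔTEC cells and 0 to 2 for the interaction. The interaction count was 2 with limma on log2(TPM + 1) and log2(TPM + 0.1) (Slfn8 added) and 3 with near-identical members pooled, where Slfn8 and Slfn9 are 1 pooled test (-0.632, adjusted p = 0.0602) counted for both. The values that changed sign follow. For Slfn9 at rest they were 0.001 with library totals alone, 0.013 with limma on log2(TPM + 1) with and without the filter, 0.014 with log2(TPM + 0.1), 0.258 pooled with Slfn8 and Slfn10-ps, 0.109 with the Y-linked covariate and 0.004 without control mouse 2 (-0.093 to 0.004 over all mice left out). For Slfn2 at rest they were -0.003 without CtslΔTEC mouse 3 and -0.007 without control mouse 1 or 3 (-0.007 to 0.072 over all). For Slfn4 the stimulated genotype difference was 0.762 without control mouse 6 (-1.0 to 0.762 over all), and its interaction was -0.075 with a transcript length offset, -0.008 after thinning, -0.027 without CtslΔTEC mouse 6 and -0.217 without control mouse 5 (-0.217 to 1.55 over all). The causes were not tested. Slfn4 had 3 to 62 counts per library.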
